A study of Mus musculus with 12 samples.

Results

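The white pulp of the spleen is organized by a small set of chemokines and by the lymphotoxins, and 9 of their genes are described here in mice on 3 diets. They are the ligands Ccl19, Cxcl13 and Cxcl12 with their receptors Ccr7, Cxcr5 and Cxcr4, and the lymphotoxin genes Lta and Ltb with the receptor gene Ltbr. The genes were chosen by symbol, with earlier results of these data known. Each was represented by its probe with the highest mean over the 12 mice, and all 9 were found among the 19057 genes of the array. None of the 9 differed between diets at an adjusted p of 0.05, which is 0 of 9 in each of the 3 comparisons. Of all probes, 0% passed when either high-fat diet was set against control, and 0.00221% between HFD-ED and HFD-CO. In mice fed HFD-ED all 9 had a lower mean than in mice fed the control diet, Ltb was lower in all 4 HFD-ED mice than in any other mouse, and the main Cxcl12 probe was lower in all 8 mice on the high-fat diets than in any control mouse.

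The samples were spleens of male C57BL/6J mice, 4 for each diet and 1 array for each mouse. HFD-ED, a high-fat diet enriched in eicosapentaenoic acid (EPA) and docosahexaenoic acid (DHA), both marine n-3 fatty acids, held 15 g fat per 100 g, of which 10 g was coconut oil, 3 g corn oil and 2 g the oil rich in EPA and DHA. HFD-CO, the high-fat diet with corn oil, held the same 15 g fat and 10 g coconut oil with 5 g corn oil, and both high-fat diets held 1 g cholesterol per 100 g. Fat made up 5 g per 100 g of the control diet. Mice were bought at 6 weeks of age, kept for 3 weeks on control chow and then fed the diets for 8 weeks. The study picked the 4 mice of each diet out of more animals, by weight and by triglyceride and cholesterol in plasma, and nothing in the sources used here gives the BeadChip on which each array lay. The extraction protocol names skeletal muscle, whereas tissue label, sample titles and paper all give spleen. Of genes of the splenic red pulp, Spic, the transcription factor of iron-recycling macrophages, lay between 10.42 and 11.35 log2 units in all mice, and Slc40a1, the iron exporter ferroportin, between 12.89 and 13.48. Tlx1, a transcription factor of the embryonic spleen, stayed at 7.02 to 7.12, near the lower end of the array.

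Ccl19 is made by reticular stromal cells of the T cell zone and draws T cells and mature dendritic cells that carry Ccr7. Cxcl13 is made by follicular stroma and follicular dendritic cells and draws B cells that carry Cxcr5, while Cxcl12, a ligand of Cxcr4, holds plasma cells and blood-forming cells in the red pulp and other niches. Lymphotoxin alpha and beta form a complex on the surface of lymphocytes that binds the lymphotoxin beta receptor on stromal cells, and in mice this signal, which runs through the alternative NF-κB pathway, is needed for the white pulp and for its expression of Cxcl13 and Ccl19.

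The promoters of the 5 ligand genes are shown. The differences between diets described below were not confined to these genes. Of the 9, the receptor gene Cxcr5 had the largest from control in HFD-ED. The sequences are those of RefSeq on GRCm38.p6, 300 bases each, written 5′ to 3′ on the gene's strand. Each holds 250 bases before the start used and 50 after it. For Lta the start used lay inside the gene interval given below, so most of its window lay within that interval. Of the 9 genes, 7 were matched in the promoter table, which did not include Ccr7 and Cxcr5. Capitals mark matches on either strand to the NF-κB consensus, to the TATA box (TATAAA) and to the GC box (GGGCGG).
Ltb promoter, chr17:35194257-35194556, plus strand: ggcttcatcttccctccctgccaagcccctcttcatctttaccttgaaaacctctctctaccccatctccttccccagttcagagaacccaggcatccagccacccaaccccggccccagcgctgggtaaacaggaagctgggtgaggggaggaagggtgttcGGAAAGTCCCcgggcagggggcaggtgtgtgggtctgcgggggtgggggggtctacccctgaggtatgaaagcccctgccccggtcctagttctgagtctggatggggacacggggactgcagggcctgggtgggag
Lta promoter, chr17:35205302-35205601, minus strand: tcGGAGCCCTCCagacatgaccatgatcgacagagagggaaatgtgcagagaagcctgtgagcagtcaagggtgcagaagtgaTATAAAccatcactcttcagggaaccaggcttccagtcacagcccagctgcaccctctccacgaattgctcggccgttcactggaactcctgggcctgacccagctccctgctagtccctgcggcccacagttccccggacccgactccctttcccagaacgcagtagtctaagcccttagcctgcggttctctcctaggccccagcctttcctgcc
Ccl19 promoter, chr4:42756316-42756615, minus strand: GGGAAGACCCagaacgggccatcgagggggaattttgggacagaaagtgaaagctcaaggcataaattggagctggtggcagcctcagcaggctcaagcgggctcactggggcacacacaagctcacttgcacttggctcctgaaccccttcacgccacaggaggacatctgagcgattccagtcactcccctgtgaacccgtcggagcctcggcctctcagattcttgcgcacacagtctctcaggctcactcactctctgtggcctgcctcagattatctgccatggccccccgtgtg
Cxcl13 promoter, chr5:95956689-95956988, plus strand: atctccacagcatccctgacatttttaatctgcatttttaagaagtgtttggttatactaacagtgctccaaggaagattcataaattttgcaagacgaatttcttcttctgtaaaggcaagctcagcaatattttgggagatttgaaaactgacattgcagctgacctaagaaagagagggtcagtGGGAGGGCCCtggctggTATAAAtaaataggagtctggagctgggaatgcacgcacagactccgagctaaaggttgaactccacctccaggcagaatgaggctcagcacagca
Cxcl12 promoter, chr6:117168285-117168584, plus strand: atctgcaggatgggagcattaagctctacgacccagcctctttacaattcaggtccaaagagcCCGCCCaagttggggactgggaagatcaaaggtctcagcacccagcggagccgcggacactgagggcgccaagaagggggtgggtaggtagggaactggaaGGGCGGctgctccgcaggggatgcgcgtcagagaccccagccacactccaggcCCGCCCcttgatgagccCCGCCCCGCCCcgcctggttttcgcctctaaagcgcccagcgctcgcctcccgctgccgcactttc

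The Ltb promoter held 1 NF-κB match, GGAAAGTCCC, which began 87 bases before the start. In the Cxcl13 promoter the match GGGAGGGCCC began 63 bases before the start and was followed by a TATA box. Ccl19 and Lta each held 1 NF-κB match close to the far end of the window. The Lta window also held a TATA box, which lay inside the gene interval. The Cxcl12 promoter held no NF-κB match and 5 GC boxes, of which those nearest the start overlapped each other. An NF-κB match was thus present in 4 of 7 promoters, against 26.8% of all 32851 promoters in the table, and a GC box in 3 of 7, those of Cxcl12, Cxcr4 and Ltbr, against 35.7%. A TATA box was present in 3 of 7, that of Lta inside the gene interval, against 13.6%. A match is a description of letters and not a measured site. Lta and Ltb are neighbors, on mouse chromosome 17 at chr17:35203165-35205578 and chr17:35194507-35196305, 6859 bases apart, with Tnf between them at chr17:35199367-35202007.

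All levels below are the deposited values, which are close to log2 of the bead intensity after variance stabilization and quantile normalization. Levels of different probes were not set against each other. The values ran up to 14.79, and 75.2% of probes had a mean under 7.5, where differences are compressed. Of the 9 genes, 8 had a mean of 7.5 or more and Ltbr did not. The 3 diets were fitted together with limma, with the Benjamini-Hochberg adjustment over all 45281 probes in each comparison. At an adjusted p under 0.05 the share of all probes called was 0% when either high-fat diet was set against control, and 0.00221%, or 1 probe, between HFD-ED and HFD-CO. Differences between 2 diets were also tested on each gene's own values with an exact two-sided permutation test, whose smallest possible p with 4 mice per diet is 0.0286.

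**Figure D1:**
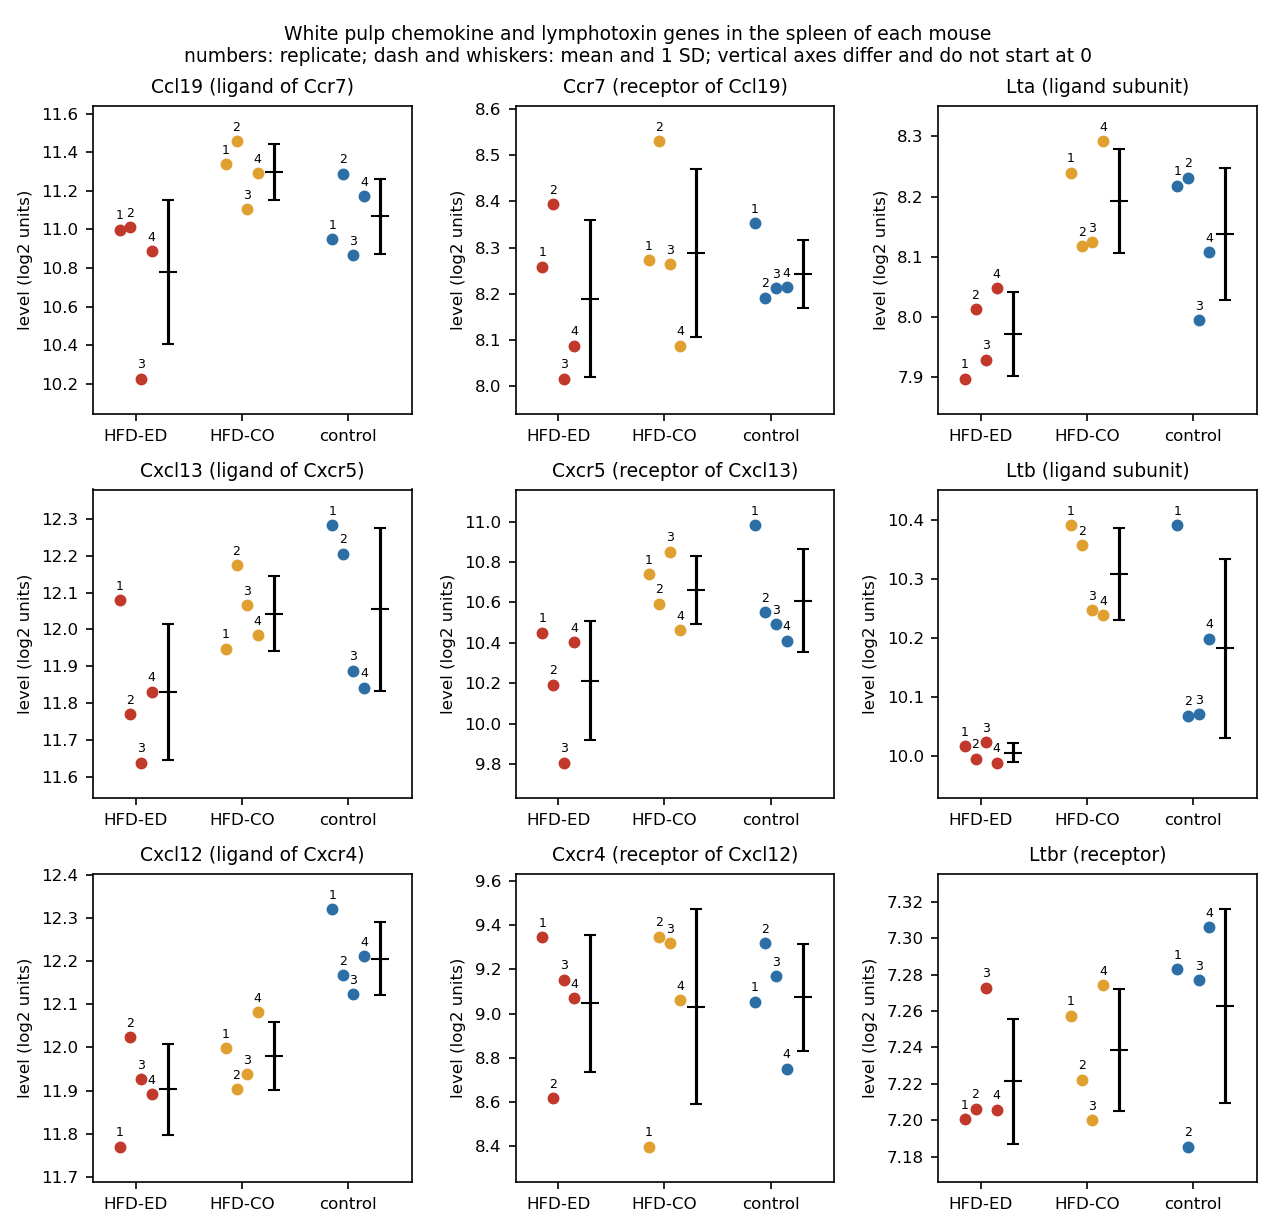
Level in log2 units of each of the 9 genes in each mouse, by diet, with the replicate number above the point and the mean and 1 SD of 4 mice beside it. The 4 HFD-ED mice lie together at the bottom for Ltb, at 9.99 to 10.02, and all control mice lie above both high-fat diets for Cxcl12.

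Ltb, the membrane-anchored subunit of the lymphotoxin complex, gave the plainest split between HFD-ED and the other diets. Its levels were 10.02, 9.996, 10.02 and 9.99 in the HFD-ED mice, 10.39, 10.36, 10.25 and 10.24 in the HFD-CO mice, and 10.39, 10.07, 10.07 and 10.20 in the control mice. The HFD-ED mice spanned 0.03 log2 units and lay below all 8 other mice, whereas control mice spanned 0.32 and overlapped the HFD-CO mice. Over all genes, 0.871% had all 4 HFD-ED mice below every other mouse, and 1.74% of the 7014 genes with a mean of 7.5 or more. The difference was -0.30 ± 0.06 (SE) for HFD-ED against HFD-CO (limma adjusted p = 0.337, exact permutation p = 0.0286) and -0.18 ± 0.06 for HFD-ED against control (limma adjusted p = 0.410, exact permutation p = 0.0286). For HFD-CO against control it was 0.13 ± 0.06 (limma adjusted p = 0.99996). Without control replicate 1, the highest control mouse, the difference of HFD-ED from control was -0.11.

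Lta, the secreted subunit, had lower values overall in HFD-ED as well. It measured 7.90, 8.01, 7.93 and 8.05 in the HFD-ED mice, 8.24, 8.12, 8.12 and 8.29 in the HFD-CO mice, and 8.22, 8.23, 7.99 and 8.11 in the control mice. The HFD-ED mice lay below every HFD-CO mouse, and 1 control mouse, replicate 3, lay within their range. The difference was -0.22 ± 0.06 (SE) for HFD-ED against HFD-CO (limma adjusted p = 0.381, exact permutation p = 0.0286) and -0.17 ± 0.06 for HFD-ED against control (limma adjusted p = 0.400, exact permutation p = 0.0857). A second Lta probe, near the lower end of the array, differed by 0.02 and -0.01 in the same comparisons. Tnf, the cytokine gene between Lta and Ltb, was also dim. It averaged 7.23 ± 0.02 in HFD-ED mice, 7.39 ± 0.05 in HFD-CO mice and 7.34 ± 0.05 in control mice (SD, n = 4 each). Tnf was lower in HFD-ED than in both other diets without overlap, as were 0.871% of all genes. Its adjusted p in limma was 0.319 for HFD-ED against HFD-CO and 0.297 for HFD-ED against control.

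Ltbr, the receptor on stromal cells, was measured close to the lower end of the array, where differences are compressed. It averaged 7.22 ± 0.03 in HFD-ED mice, 7.24 ± 0.03 in HFD-CO mice and 7.26 ± 0.05 in control mice (SD, n = 4 each), and the 3 diets overlapped. Its 3 differences were within -0.04 and -0.02.

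Ccl19, the T zone ligand of Ccr7, was lower in every HFD-ED mouse than in every HFD-CO mouse. It measured 10.999, 11.01, 10.23 and 10.89 in the HFD-ED mice, 11.34, 11.46, 11.10 and 11.29 in the HFD-CO mice, and 10.95, 11.29, 10.87 and 11.17 in the control mice. HFD-ED replicate 3 lay far below the rest, and the other 3 HFD-ED mice lay within the range of the control mice. The difference was -0.52 ± 0.17 (SE) for HFD-ED against HFD-CO (limma adjusted p = 0.454, exact permutation p = 0.0286), a fold of 0.699 on this scale. It was -0.29 ± 0.17 for HFD-ED against control (limma adjusted p = 0.609, exact permutation p = 0.257). Without HFD-ED replicate 3 these differences were -0.33 and -0.10. For HFD-CO against control it was 0.23 ± 0.17 (limma adjusted p = 0.99996). Ccl21a, the other ligand of Ccr7, measured 12.38, 11.97, 10.48 and 11.98 in the HFD-ED mice, and the 8 other mice lay between 12.11 and 12.43. Here too replicate 3 was lowest by far, while replicate 1 was level with the highest control mouse. Ccl21a differed by -0.58 ± 0.32 (SE) from control in HFD-ED (limma adjusted p = 0.576), and RNA of near-identical Ccl21 copies may also bind this probe.

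Ccr7, the receptor of T cells and mature dendritic cells, showed no such split. It measured 8.26, 8.39, 8.02 and 8.09 in the HFD-ED mice, 8.27, 8.53, 8.26 and 8.09 in the HFD-CO mice, and 8.35, 8.19, 8.21 and 8.21 in the control mice. The 3 diets overlapped throughout. Its differences were -0.10 ± 0.10 (SE) for HFD-ED against HFD-CO, -0.05 ± 0.10 for HFD-ED against control and 0.05 ± 0.10 for HFD-CO against control, with an adjusted p of 0.821 or more.

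Cxcr5, the receptor that takes B cells into follicles, had the largest mean difference of the 9 genes from control in HFD-ED. It measured 10.45, 10.19, 9.81 and 10.40 in the HFD-ED mice, 10.74, 10.59, 10.85 and 10.46 in the HFD-CO mice, and 10.98, 10.55, 10.49 and 10.41 in the control mice. HFD-ED replicate 3 was again lowest, the HFD-ED mice lay below every HFD-CO mouse by a gap of 0.01, and HFD-ED replicate 1 overlapped the lowest control mouse. The difference was -0.45 ± 0.16 (SE) for HFD-ED against HFD-CO (limma adjusted p = 0.473, exact permutation p = 0.0286) and -0.40 ± 0.16 for HFD-ED against control (limma adjusted p = 0.436, exact permutation p = 0.0571). Without HFD-ED replicate 3 the differences were -0.31 and -0.26. The other Cxcr5 probes gave differences from control of -0.31 and -0.25 in HFD-ED, the same sign as the probe used, and all 3 probes are above 7.5. Between HFD-ED and HFD-CO these other probes differed by -0.33 and -0.18, with overlap in both (exact permutation p = 0.0571 and 0.229), so the absence of overlap was seen with the probe used only. For HFD-CO against control the probe used differed by 0.05 ± 0.16.

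Cxcl13, the follicular ligand of Cxcr5, was lower in HFD-ED by a smaller amount. It measured 12.08, 11.77, 11.64 and 11.83 in the HFD-ED mice, 11.95, 12.17, 12.07 and 11.98 in the HFD-CO mice, and 12.28, 12.21, 11.89 and 11.84 in the control mice. HFD-ED replicates 2, 3 and 4 lay below all 8 other mice, and replicate 1 lay among them. The difference was -0.21 ± 0.11 (SE) for HFD-ED against HFD-CO (limma adjusted p = 0.617, exact permutation p = 0.114) and -0.23 ± 0.11 for HFD-ED against control (limma adjusted p = 0.544, exact permutation p = 0.143). Without control replicate 1 the difference of HFD-ED from control was -0.15. HFD-CO and control means differed by -0.01.

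Cxcl12 was the 1 gene of the 9 in which both high-fat diets lay on the same side of control without overlap. Its main probe measured 11.77, 12.02, 11.93 and 11.89 in the HFD-ED mice, 11.998, 11.90, 11.94 and 12.08 in the HFD-CO mice, and 12.32, 12.17, 12.12 and 12.21 in the control mice. The highest of the 8 high-fat mice, HFD-CO replicate 4, lay 0.04 below the lowest control mouse, and HFD-ED and HFD-CO overlapped. All 8 high-fat mice lay below every control mouse in 0.436% of all genes, and in 0.756% of genes with a mean of 7.5 or more. The difference was -0.30 ± 0.06 (SE) for HFD-ED against control (limma adjusted p = 0.207, exact permutation p = 0.0286) and -0.23 ± 0.06 for HFD-CO against control (limma adjusted p = 0.99996, exact permutation p = 0.0286). These comparisons share the control mice. Between HFD-ED and HFD-CO it was -0.08 ± 0.06 (limma adjusted p = 0.750).

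The other bright Cxcl12 probes had the sign of the main probe for HFD-ED against control but not for HFD-CO against control. Of 5 probes, 3 had a mean of 7.5 or more, and the annotation places these on 3 different transcripts. The second probe averaged 8.97 in HFD-ED mice, 9.28 in HFD-CO mice and 9.13 in control mice, with overlap between all diets. Another averaged 8.45 in HFD-ED mice, 8.64 in HFD-CO mice and 8.54 in control mice, again with overlap. HFD-ED thus differed from control by -0.16 and -0.09 and HFD-CO by 0.15 and 0.09, for HFD-CO the opposite sign to the main probe. As the mean of all 5 probes Cxcl12 differed from control by -0.11 in HFD-ED and by 0.0048 in HFD-CO, and whether the probes read different transcripts in these spleens was not tested.

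**Figure D2:**
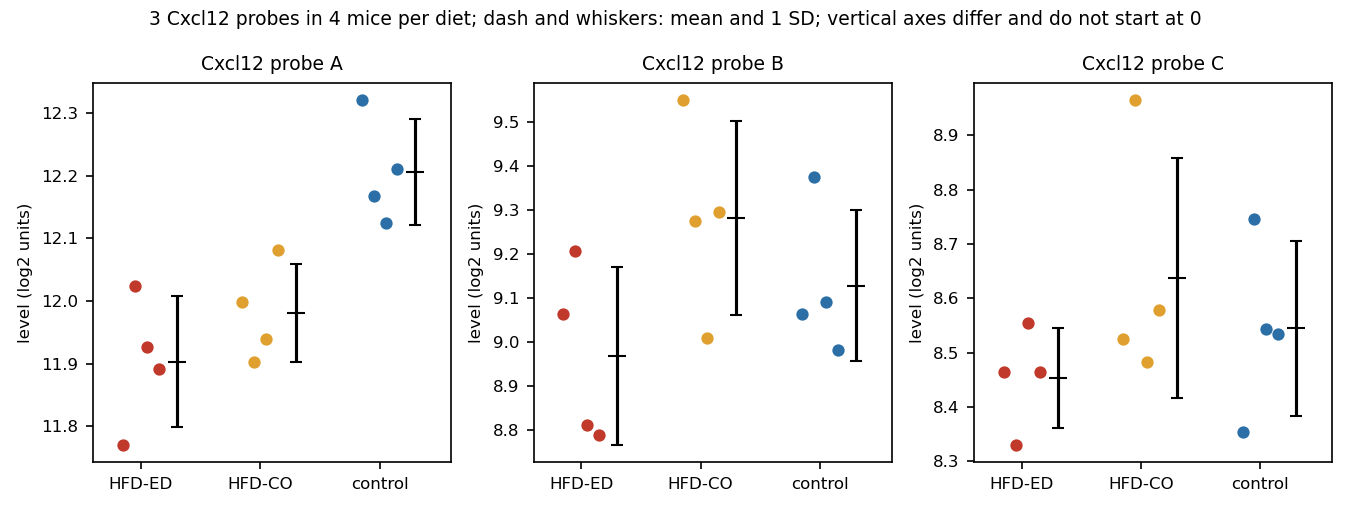
Level in log2 units of the 3 Cxcl12 probes with a mean of 7.5 or more, by diet, 1 point per mouse, with the mean and 1 SD of 4 mice. Probe A is the main probe and shows both high-fat diets below control, whereas probes B and C average highest in HFD-CO.

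Cxcr4, the receptor of Cxcl12 on lymphocytes and blood-forming cells, varied most within diets. It measured 9.35, 8.62, 9.15 and 9.07 in the HFD-ED mice, 8.40, 9.35, 9.32 and 9.06 in the HFD-CO mice, and 9.05, 9.32, 9.17 and 8.75 in the control mice. Its SD within diets was 0.34, and HFD-CO held both the highest and the lowest of the 12 mice. The 3 differences lay between -0.04 and 0.02, each with an SE of 0.22.

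**Figure D3:**
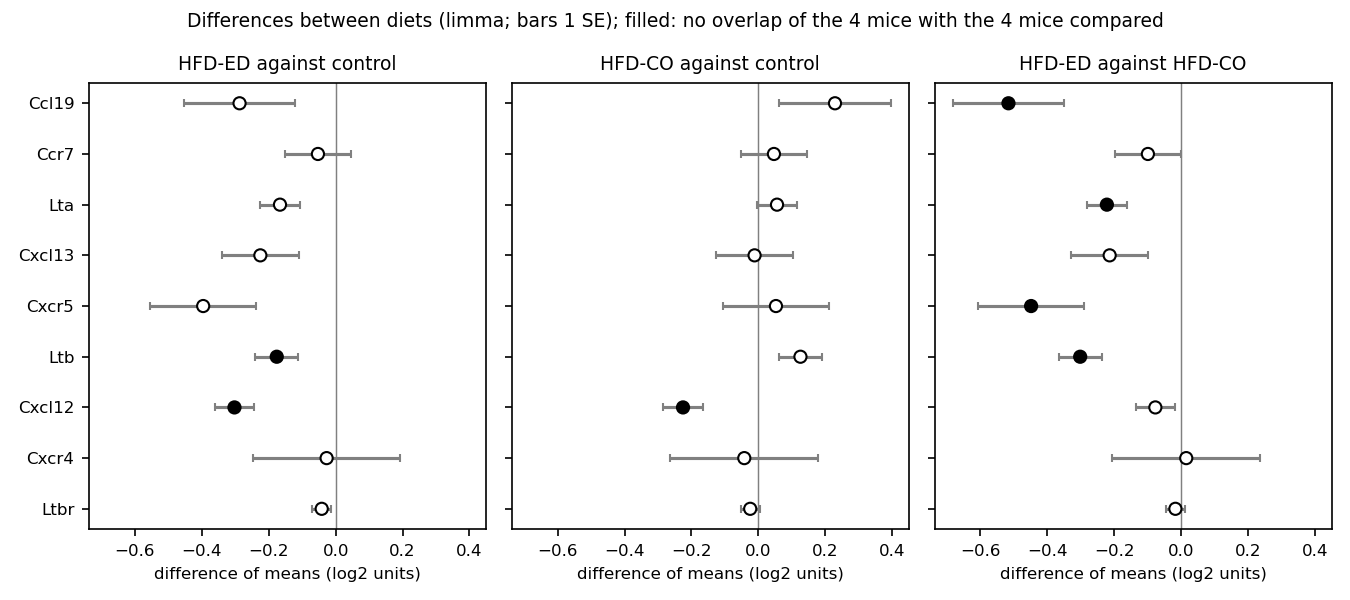
Difference of diet means in log2 units for the 9 genes in each comparison, with 1 SE from limma. Filled points, where the 4 mice of one diet did not overlap the 4 of the other, are Cxcl12 and Ltb for HFD-ED against control, Cxcl12 for HFD-CO against control, and Ccl19, Lta, Cxcr5 and Ltb for HFD-ED against HFD-CO.

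Counted together, 9 of 9 genes had a lower mean in HFD-ED than in control, 4 of 9 in HFD-CO than in control and 8 of 9 in HFD-ED than in HFD-CO. Of all genes 54.1%, 52.2% and 53.0% were lower. The 9 are not separate observations, as the mice are the same and HFD-ED replicate 3 was lowest in Ccl19, Ccr7, Cxcl13 and Cxcr5. They were also chosen with earlier results of these data known. The median differences of the 9 were -0.18, 0.05 and -0.21 log2 units, beside medians over all 19057 genes of -0.004, -0.002 and -0.003. Only 7014 of these genes had a mean of 7.5 or more, as 8 of the 9 did. The medians and shares lower over all genes thus include many dim genes, whose differences are compressed. They were not computed for the brighter genes alone. All 4 mice of the diet named first lay below all 4 of the other for 2, 1 and 4 of the 9 genes, against 3.49%, 1.85% and 2.61% of all genes, or 6.05%, 2.31% and 4.15% of the genes with a mean of 7.5 or more. At an unadjusted limma p under 0.05, 4, 1 and 4 of the 9 were lower, beside 7.55%, 2.88% and 5.82% of all genes, or 14.8%, 4.05% and 10.7% of those with a mean of 7.5 or more. The largest differences were those of Ccl19 and Cxcr5 between HFD-ED and HFD-CO, and the receptors Cxcr4, Ccr7 and Ltbr differed by 0.10 or less in every comparison.

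Ligands and receptors were set against each other across the 12 mice. The permutation p shuffles all 12 mice without regard to diet. It thus does not separate differences between diets from those between mice of a diet, and r on deviations from the diet means was given no p. Cxcl13 and Cxcr5 correlated with Pearson r = 0.81 and Spearman rho = 0.80 (permutation p = 0.00111 and 0.00271, n = 12, adjusted over 6 relations 0.00666 and 0.0163). Without the 2 mice farthest from the median of Cxcl13, HFD-ED replicate 3 and control replicate 1, r was 0.57, and on deviations from the diet means it was 0.71. Within HFD-ED and within control the 4 mice had the same order in both genes, whereas in HFD-CO replicate 2 was highest in Cxcl13 and replicate 3 in Cxcr5, and 4 mice per diet were too few to test the relation within one. Lta and Ltb correlated with r = 0.69 and rho = 0.67 (permutation p = 0.0154 and 0.0216, adjusted 0.0462 and 0.0649, n = 12), and r was 0.61 without the 2 mice farthest from the Lta median and 0.20 on deviations from the diet means. The relation of Lta and Ltb was thus weaker within the diets than across them.

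Lta with Ltb thus passed the adjusted threshold by r and not by rho, and the other 4 pairs had an adjusted p of 0.144 or more. Ccl19 and Ccr7 gave r = 0.54 and rho = 0.42 (permutation p = 0.0718 and 0.170, adjusted 0.144 and 0.256, n = 12), and r was -0.17 without HFD-ED replicate 3 and HFD-CO replicate 2, on which it rested. Cxcl12 and Cxcr4 gave r = -0.25 and rho = -0.45 (permutation p = 0.433 and 0.142, adjusted 0.520 and 0.256, n = 12), and r was -0.18 without the 2 mice farthest from the Cxcl12 median. With Ltbr, r was 0.16 for Lta and 0.37 for Ltb, rho was 0.04 and 0.38, and the permutation p was 0.611 and 0.228 for r and 0.905 and 0.224 for rho (adjusted 0.611 and 0.342, and 0.905 and 0.269, n = 12). Without the 2 mice farthest from the ligand's median, r was 0.16 and 0.21. On deviations from the diet means, r was 0.49 for Ccl19 with Ccr7 and -0.56 for Cxcl12 with Cxcr4. With Ltbr it was -0.09 for Lta and 0.38 for Ltb.

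**Figure D4:**
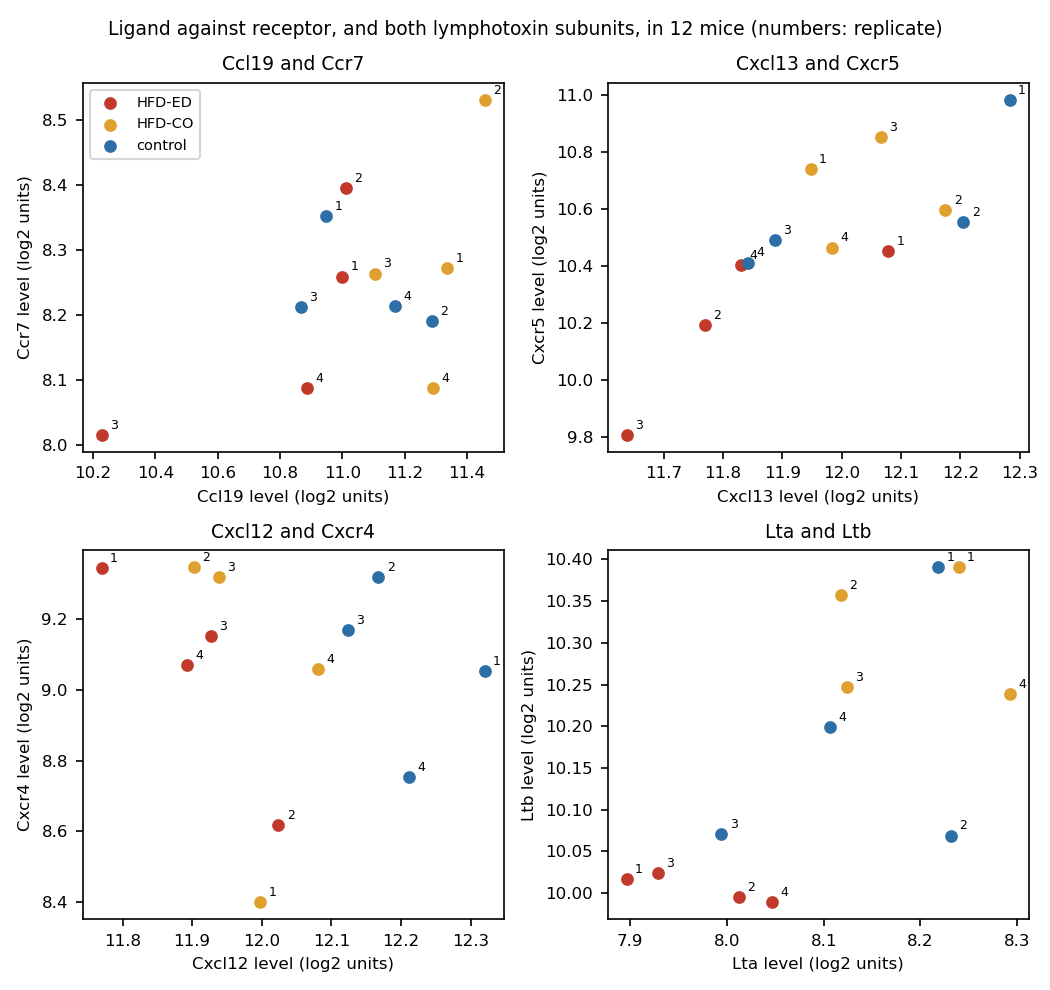
Receptor against ligand, and Ltb against Lta, in log2 units, 1 point per mouse with its replicate number and colored by diet. Cxcl13 and Cxcr5 run along a line (r = 0.81) from HFD-ED replicate 3 to control replicate 1, and HFD-ED mice lie at the lower left for Lta and Ltb.

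Most measured markers of B cells, T cells and reticular stroma also had lower means in HFD-ED than in control, while those of follicular dendritic cells were divided. In whole spleen, fewer cells of a type and less RNA per cell cannot be told apart. Of 12 B cell genes 11 were lower in HFD-ED than in control (median -0.16), of 14 T cell genes 11 (median -0.12), of 15 genes of fibroblastic reticular stroma 10 (median -0.06) and of 9 genes of follicular dendritic cells 5 (median -0.003), where 54.1% of all genes were lower. None of these genes passed the adjusted threshold. The mean of the B cell list deviated from the 12-mouse mean by -0.38 to 0.05 in HFD-ED mice, 0.02 to 0.11 in HFD-CO mice and 0.02 to 0.15 in control mice. HFD-ED replicate 3 was lowest in the B cell, T cell, stromal and follicular lists, and HFD-ED replicate 1 lay within the range of the 8 mice on the other diets in each. Blk, a Src family kinase of B cells, differed from control by -0.58 ± 0.13 (SE) in HFD-ED and Cd79b, a chain of the B cell receptor, by -0.34 ± 0.09 (limma adjusted p = 0.252 and 0.304). Clec9a, a receptor of cross-presenting dendritic cells, differed by -0.51 ± 0.08 (limma adjusted p = 0.193). It was lower in HFD-ED than in control without overlap, as were 3.49% of all genes.

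Lists of other cells differed between mice as well. All 16 erythroid genes had a higher mean in HFD-ED than in control (median 1.09) and all 12 neutrophil genes too (median 0.83), none past the adjusted threshold. The erythroid list deviated by -0.62, 0.95, 1.57 and 0.86 in the HFD-ED mice, by -0.84 to 0.43 in HFD-CO mice and by -0.78 to 0.28 in control mice. The neutrophil list deviated by -0.27 to 1.94 in HFD-ED mice, -0.79 to -0.30 in HFD-CO mice and -0.64 to 0.29 in control mice. HFD-ED replicate 3 was thus highest in red cell genes and lowest in Ccl19, Cxcl13, Cxcr5 and Ccr7, but not in Ltb, Lta or Cxcl12. Pancreatic acinar genes were at 4.98 above the 12-mouse mean in HFD-CO replicate 4 and at 1.36 in HFD-CO replicate 1, against -0.90 to 0.08 in the other 10 mice. Adipocyte genes deviated by -0.15 to 0.10 in HFD-ED mice, by 0.06 to 0.21 in HFD-CO mice and by -0.18 to 0.06 in control mice. Of 9 such genes 7 were lower in HFD-ED than in HFD-CO (median -0.12) and 5 were higher in HFD-CO than in control (median 0.12), none past the adjusted threshold. Lpl, the lipoprotein lipase, averaged 10.18 ± 0.27 in HFD-ED mice, 10.61 ± 0.29 in HFD-CO mice and 10.07 ± 0.30 in control mice (SD, n = 4 each), with overlap between HFD-CO and both other diets. The part of these cells in the differences was not tested. Without both HFD-ED replicate 3 and HFD-CO replicate 4, an alternative chosen after the data were seen, Ltb differed by -0.33 between HFD-ED and HFD-CO and by -0.18 between HFD-ED and control, and Cxcl12 differed from control by -0.31 in HFD-ED and by -0.26 in HFD-CO.

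To see how far a gene moved with the markers of 1 cell type known to make it, the mean of a marker list was subtracted in each mouse. Such a list need not cover all cells that make the gene. Some genes were left out before the subtraction. They were Ccl21a, Ccl21c, Bst1, Il7 and Tnfsf11 for the stromal list, Cr2 for the B cell list, and Cr2 and Madcam1 for the follicular dendritic cell list. This left 10, 11 and 7 genes. Cxcl12, also of the red pulp and other niches, was set against the stromal list only, and Ltb, of lymphocytes, against the B cell list only. The values are thus not levels per cell. Cxcl12 minus the stromal list differed from control by -0.24 in HFD-ED and by -0.26 in HFD-CO, with no overlap (exact permutation p = 0.0286, adjusted 0.171 over the 6 values of a comparison). For HFD-ED the margin was small, with replicate 3 at 0.106 and control replicate 2 at 0.108. The full list of 15 stromal genes deviated by -0.39 in HFD-ED replicate 3, so this absence of overlap depends on the genes left out. Ccl19 minus the same 10 genes differed by -0.42 between HFD-ED and HFD-CO, also with no overlap (exact permutation p = 0.0286, adjusted 0.171). Before the subtraction these differences were -0.30, -0.23 and -0.52. Cxcr5 minus the B cell list differed by -0.23 between HFD-ED and HFD-CO (exact permutation p = 0.143) and by -0.17 between HFD-ED and control (exact permutation p = 0.286), and Ltb minus the B cell list by -0.08 (exact permutation p = 0.486) and 0.05 (exact permutation p = 0.686). Relative to B cell genes the Ltb values of the 3 diets overlapped. Ccr7 minus the T cell list differed by 0.07 and 0.08 in these comparisons, and Cxcl13 minus the follicular dendritic cell list by -0.17 and -0.20, with overlap in each.

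**Figure D5:**
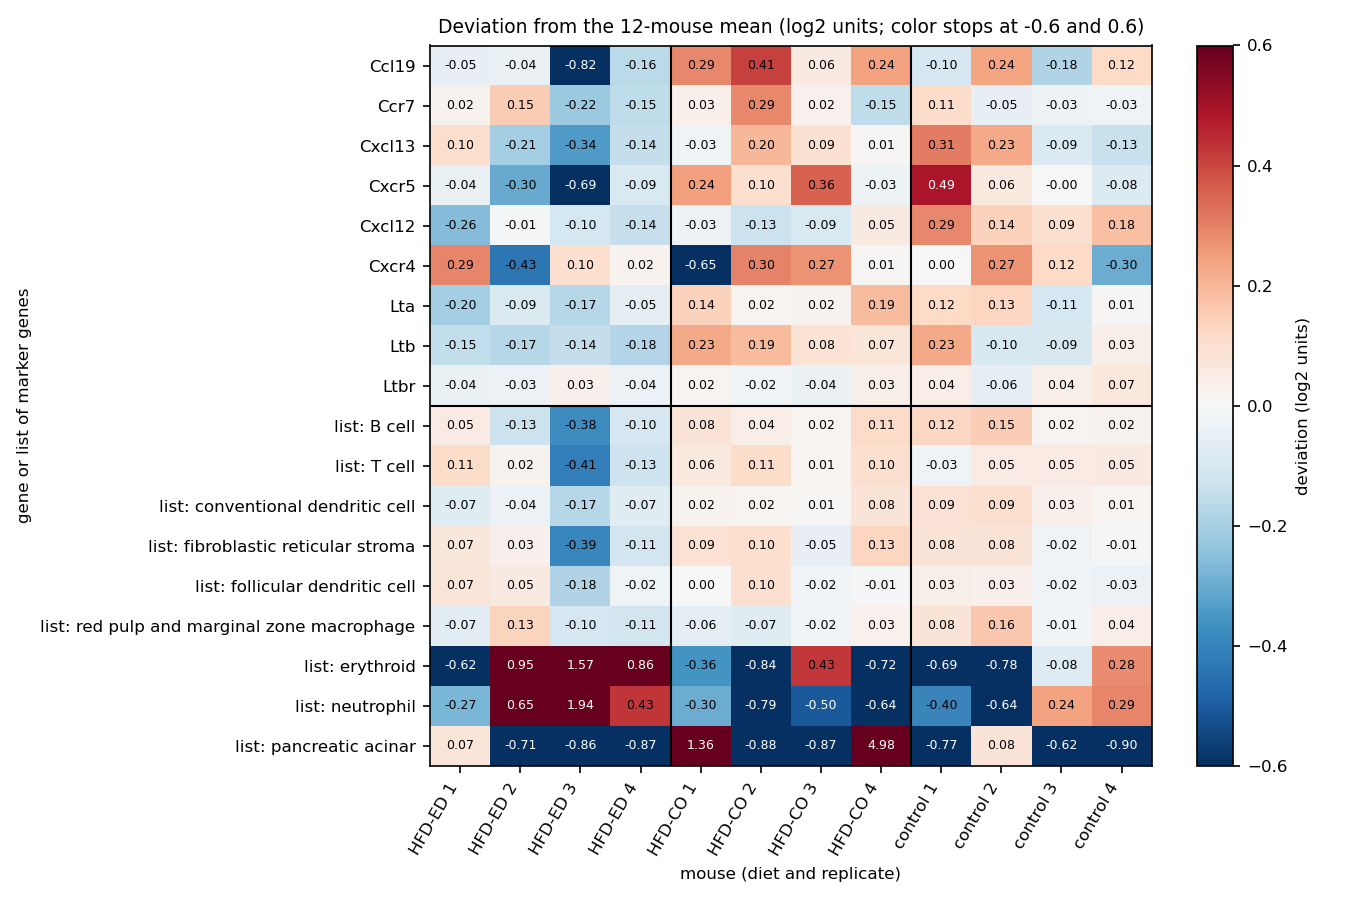
Deviation from the 12-mouse mean in log2 units of the 9 genes and of the mean of 9 marker lists, 1 column per mouse, with HFD-ED mice at the left, then HFD-CO and control. Ltb is negative by 0.14 or more in all 4 HFD-ED mice, whereas the B cell list ranges from -0.38 to 0.05 in the same mice.

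The wider pathway gave no called gene either. Of 19 other homeostatic chemokine genes and scavenging receptors, 16 were lower in HFD-ED than in control (median -0.10) and 15 in HFD-ED than in HFD-CO (median -0.07). Cxcl16, a ligand of Cxcr6, averaged 8.63 ± 0.26 in HFD-ED mice and 8.98 ± 0.12 in control mice (SD, n = 4 each; limma adjusted p = 0.381). It was lower without overlap, as were 3.49% of all genes. Gpr183, a receptor that guides B cells to the edge of the follicle, differed by -0.33 ± 0.11 (SE) between HFD-ED and HFD-CO (limma adjusted p = 0.452). Of 10 partners in the tumor necrosis factor family 9 were lower in HFD-ED in both comparisons (median -0.04 against control and -0.10 against HFD-CO). Tnfrsf13c, the receptor of the B cell survival factor BAFF, averaged 10.19 ± 0.33 in HFD-ED mice and 10.50 ± 0.24 in control mice (SD, n = 4 each), with overlap.

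Of 12 genes of the alternative NF-κB pathway behind Ltbr, 8 were lower in HFD-ED than in control (median -0.11) and 10 in HFD-ED than in HFD-CO (median -0.14). Map3k14, the kinase NIK that starts this pathway, differed from control by -0.32 ± 0.12 (SE) in HFD-ED, and Nfkb2, which encodes its precursor p100, by -0.22 ± 0.07 (limma adjusted p = 0.403 and 0.372), both with overlap. Birc2, a ubiquitin ligase that keeps NIK low, measured 10.32, 9.96, 10.18 and 10.24 in the HFD-ED mice and 10.67, 10.47, 10.61 and 10.41 in the control mice. The HFD-ED mice lay below every control mouse, as for 3.49% of all genes, with a difference of -0.36 ± 0.08 (SE; limma adjusted p = 0.252). Of 10 genes known to need lymphotoxin signaling, 7 were lower in HFD-ED than in control (median -0.12). Icam1, an adhesion molecule, differed by -0.27 ± 0.08 (SE; limma adjusted p = 0.344). It was lower without overlap, as were 3.49% of all genes. Il7, a survival factor for T cells, differed by -0.27 ± 0.10 (limma adjusted p = 0.410).

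The genes whose levels ran most like each of the 9 across the 12 mice were looked up among 7014 genes with a mean of 7.5 or more, as a description. They were Osbpl2 for Ltb (r = 0.92), Hps3 for Lta (r = 0.93), Slc35b4 for Ccl19 (r = 0.95), Unc119b for Cxcr5 (r = 0.94), Rnf103 for Cxcl13 (r = 0.93) and Klre1 for Cxcl12 (r = 0.94). For Cxcr4 they were Tsc22d3, a glucocorticoid-induced gene, and Bcl2l11, which encodes the cell death protein Bim (both r = 0.92). For Ccr7 and Ltbr they were Rhog (r = 0.89) and 9130020K20Rik (r = 0.84).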

How the data were processed

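Total RNA of 12 mouse spleens was hybridized to Illumina MouseWG-6 v2.0 BeadChips. Bead intensities were taken by the authors from GenomeStudio into lumiExpresso (lumi 2.18.0, per the submitters' processing notes), with variance stabilization and quantile normalization, and the deposited log2 values were used unchanged. Symbols came from the platform annotation (34885 of 45281 probes with 1 symbol). A single limma 3.58.1 model (R 4.3.3) held all diets, with p-values adjusted by Benjamini-Hochberg over all probes. The fit was tested on simulated data with independent noise for each probe. Variation shared by the probes of a mouse was not simulated, so that test does not show how the fit performs on these arrays. Permutation tests used scipy 1.17.1, with 100000 resamples for correlations. The genes and the 16 lists (165 of 183 genes measured) were chosen with earlier results of these data known. From each list up to 3 genes with the smallest p per comparison could be named. Alternatives were a replicate block, a variance trend, weighting of arrays, leaving out dim probes, testing 1 probe for each gene, cyclic loess, only the diets compared, another adjustment or threshold, the mean of a gene's probes, and leaving out mice.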

Additional observations from a re-analysis of the deposited data

Results flagged for a closer look

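In 27 groups of 4 mice, 3 held a mouse far from the others by Dixon's criterion, where chance alone gives about 1 in 20. Ccl19 was 10.23 in HFD-ED replicate 3, against 10.89 to 11.01 in the other HFD-ED mice. Ltbr was 7.27 in the same mouse, against 7.20 to 7.21, near the lower end of the array. Ccr7 was 8.35 in control replicate 1, against 8.19 to 8.21 in the other control mice.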

How the results depend on the processing

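The count of the 9 genes called was 0 under every alternative run. The count of probes called for HFD-ED against control was 0, but 3 with 1 probe per gene symbol, and 0 to 87 when single mice were left out, 87 being without HFD-ED replicate 1. For HFD-ED against HFD-CO it was 1, but 0 with the replicate block, a variance trend, cyclic loess, dim probes left out, only the diets compared, adjustment over the 3 comparisons, a threshold of 0.001 or without both mice that stood apart, and 0 to 46 when single mice were left out, 46 being without HFD-ED replicate 1. Whether replicate numbers pair mice could not be settled, as the r of 0.1 used here was not set against unequally numbered pairs. Of 12 equally numbered pairs 4 had r over 0.1, among them those of the replicate 3 mice (0.37, 0.16 and 0.16). In all, 3 mice were closest to one of their own number, as many as chance alone would give among the mice of the other diets. The replicate block gave 0 calls among the 9 genes.

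Some signs turned. As the mean of all its probes, Cxcl12 differed from control by -0.108 in HFD-ED and by 0.0048 in HFD-CO, beside -0.30 and -0.23 with the main probe. Without both mice that stood apart, Ccr7 was 0.0049 for HFD-ED against control, Cxcl13 0.0082 for HFD-CO against control and Cxcr4 -0.011 for HFD-ED against HFD-CO. With cyclic loess Cxcl13 was 0.0084 for HFD-CO against control. When single mice were left out, HFD-ED against control ran from -0.12 to 0.0049 for Ccr7 and from -0.13 to 0.12 for Cxcr4. HFD-CO against control ran from -0.034 to 0.11 for Ccr7, -0.082 to 0.065 for Cxcl13, -0.014 to 0.18 for Cxcr5 and -0.15 to 0.17 for Cxcr4. HFD-ED against HFD-CO ran from -0.20 to 0.16 for Cxcr4. Relative to marker lists, HFD-CO against control ran from -0.016 to 0.18 for Cxcr5, -0.060 to 0.083 for Ccr7 and -0.088 to 0.041 for Cxcl13, HFD-ED against HFD-CO from -0.0016 to 0.14 for Ccr7 and -0.038 to 0.094 for Cxcl12, and HFD-ED against control from -0.035 to 0.12 for Ltb. The cause was not tested. The signal of Ltbr and Tnf, near the lower end of the array, limits what their differences show.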
